A study of Mus musculus with 15 samples.

Results

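The 7 libraries of the OPA1+/+ genotype, out of 15 in the series, describe the cornea of mice that carry both copies of Opa1, which encodes a GTPase of the inner mitochondrial membrane needed for mitochondrial fusion. They were chosen by their titles, and no gene or value entered the choice. All libraries hold total RNA of mouse cornea, 4 from animals of 3 months and 3 from animals of 6 months. The labels name no treatment, strain, sex, batch or number of animals per library, and they do not say whether replicates came from separate animals, so the spread given below is that between libraries. The remaining 8 libraries, from OPA1+/- mice, entered the scaling of the counts and nothing else.

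The cornea is the transparent front wall of the eye. A stratified epithelium, renewed from stem cells at the limbus, covers a collagen stroma kept by keratocytes, and a single layer of endothelial cells on the inner face pumps fluid out of the stroma. The tissue is densely supplied with sensory axons whose cell bodies lie in the trigeminal ganglion, is free of blood vessels, and borders the conjunctiva, sclera, iris, ciliary body and lens. RNA of corneal axons is therefore only the small part carried into the nerve ending.

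Levels are given as counts per 1e6 counts of a library (CPM), and as CPM per kilobase, which is CPM divided by the exon length that the deposited files give for the gene. Single genes are compared in level on the second scale, whereas ranks by CPM and sums over a list of genes are shares of the counts and depend on gene length. Ranks run over all 55357 annotated genes, errors are SD over the 7 libraries, and the coefficient of variation (CV) is the SD as a percentage of the mean. The libraries held 11673240 to 13854655 counts, and 22196 to 23147 genes had at least 1 count in a library. The limit that a count of 0 allows, set at 3 counts, was 0.217 to 0.255 CPM and covers counting error only. In bulk RNA, fewer cells of a type and less RNA per cell cannot be told apart.

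Promoter sequences of 3 marker genes are printed here because Krt12 led the ranking, Krt5 was at rank 3 among protein-coding genes and Kera marks the stroma. Each runs from 250 bases before to 50 bases after the transcription start, 5′ to 3′ on the gene's own strand, as RefSeq gives it on GRCm38.p6 (chr11:99422210-99422509, chr15:101712856-101713155 and chr10:97606955-97607254, in this order, with Krt12 and Krt5 on the minus strand and Kera on the plus strand). Capitals mark the letters TATAAA, the core of the TATA box that binds the general transcription machinery, where they begin 20 to 40 bases before the start.
Krt12: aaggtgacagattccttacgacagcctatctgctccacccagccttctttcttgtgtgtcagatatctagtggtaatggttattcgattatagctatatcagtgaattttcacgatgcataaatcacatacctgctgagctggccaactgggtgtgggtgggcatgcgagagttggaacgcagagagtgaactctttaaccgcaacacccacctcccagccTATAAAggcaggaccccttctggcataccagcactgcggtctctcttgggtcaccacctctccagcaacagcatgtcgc
Krt5: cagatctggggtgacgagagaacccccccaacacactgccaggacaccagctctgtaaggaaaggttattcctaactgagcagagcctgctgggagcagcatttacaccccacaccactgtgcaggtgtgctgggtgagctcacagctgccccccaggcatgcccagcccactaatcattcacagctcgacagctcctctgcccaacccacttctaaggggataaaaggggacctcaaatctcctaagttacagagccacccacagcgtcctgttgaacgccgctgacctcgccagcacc
Kera: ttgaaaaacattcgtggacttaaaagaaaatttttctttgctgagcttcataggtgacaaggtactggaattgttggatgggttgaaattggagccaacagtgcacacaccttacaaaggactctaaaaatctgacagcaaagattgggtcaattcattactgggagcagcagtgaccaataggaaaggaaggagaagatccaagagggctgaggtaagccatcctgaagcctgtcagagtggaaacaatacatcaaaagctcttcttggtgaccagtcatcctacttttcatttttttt
In Krt12 the letters began 29 bases before the start. The Krt5 and Kera windows hold no TATAAA on either strand, which says only that these letters are not there. Of the 6 marker genes Krt12, Aldh3a1, Kera, Lum, Slc4a11 and Pax6, the table holds promoters of Krt12, Kera and Pax6.

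Of the genes ranked by level, 14423 had a mean of at least 1 CPM, 12357 of them protein-coding, and 13448 reached 1 CPM in every library. A mean of at least 100 CPM was reached by 2130 genes, at least 1000 CPM by 70 and at least 10000 CPM by 5, while 26428 genes had no count in any of the 7 libraries. Counts were concentrated in few genes. The 10 genes with the highest CPM held 13.7% ± 0.464 of the counts (13.1% to 14.5%), the highest 100 held 27.6% ± 0.538, and 695 to 745 genes held 50% of a library. Nuclear protein-coding genes took 91.7% ± 0.346 of the counts, and the 54 keratin genes alone took 4.97% ± 0.400, against 1.60% ± 0.0458 for the 79 cytosolic ribosomal protein genes. Mitochondrially encoded genes took 2.92% ± 0.114. Of that, 2.47% came from the pair of mitochondrial rRNAs, whose level depends on how much of them the ribosomal depletion removed, and 0.445% ± 0.0455 from the 13 mitochondrial mRNAs. These shares leave out reads that map to several places, which were not counted.

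Krt12, the cornea-specific keratin that fills the cytoplasm of corneal epithelial cells (chr11:99306492-99313085, minus strand; gene coordinates here are those of the files, read as GRCm39), was the highest gene on both scales. Its level was 28711 CPM ± 2686, with a lowest, median and highest library of 26070, 27756 and 32864 CPM, or 15502 CPM per kilobase ± 1451. It ranked 1 in 7 of 7 libraries, and 3-month replicates 3 and 4 stood above the other 5 libraries.

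Aldh3a1, the aldehyde dehydrogenase that accumulates in corneal epithelium as a crystallin and absorbs ultraviolet light (chr11:61098363-61109247), followed at 7222 CPM per kilobase ± 539, or 12827, 13651 and 15476 CPM in its lowest, median and highest library. Krt5, the keratin of basal stratified epithelium (chr15:101615505-101621333), had 7148 CPM per kilobase ± 597, with 14471, 15307 and 18256 CPM. Krt12 exceeded Aldh3a1 in 7 of 7 libraries by a ratio of 2.15 ± 0.0803 per kilobase. Aldh3a1 exceeded Krt5 in 4 of 7 libraries, so the order of these neighbours did not hold beyond their spread. For all 3 genes the highest libraries were 3-month replicates 3 and 4.

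The next 2 protein-coding genes encode glutathione transferases. Gsto1, an omega-class glutathione transferase, had 3770 CPM per kilobase ± 180 (6900, 7644 and 8069 CPM), and Gsta4, the glutathione transferase that conjugates the lipid peroxidation product hydroxynonenal, had 2644 ± 178 (3211, 3260 and 3845 CPM). Tkt, the transketolase of the pentose phosphate pathway and another crystallin of the cornea, reached 807 CPM per kilobase ± 48.5. Lypd2, a small lipid-anchored protein of the Ly6 family, stood at 2324 CPM per kilobase ± 283. It was highest in 3-month replicate 4, at 1921 CPM against 1337 to 1638 CPM in the other 6 libraries.

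Below these stood Tmsb4x, thymosin beta 4, which binds monomeric actin, with 1795 CPM per kilobase ± 105. Calml3, a calmodulin-like protein of epithelia, had 1530 ± 123, and Aqp5, the water channel of corneal epithelium, had 1528 ± 46.9. Calml3 exceeded Aqp5 in 2 of 7 libraries and Asprv1, a retroviral-like protease of stratified epithelia, exceeded Actb, cytoplasmic beta-actin, in 4 of 7, so these neighbours were not ordered beyond their spread. Between the other neighbours of the first 11 protein-coding genes, from Krt5 over Gsto1 to Gsta4, Lypd2, Tmsb4x and Calml3 and between Aqp5 and Asprv1, the order was the same in 7 of 7 libraries. The junction proteins Perp, Dsp (desmoplakin, which anchors keratin at desmosomes) and Col17a1 (the hemidesmosomal collagen of basal cells) had 906 ± 42.2, 871 ± 31.6 and 678 ± 19.8 CPM per kilobase.

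**Figure D1:**
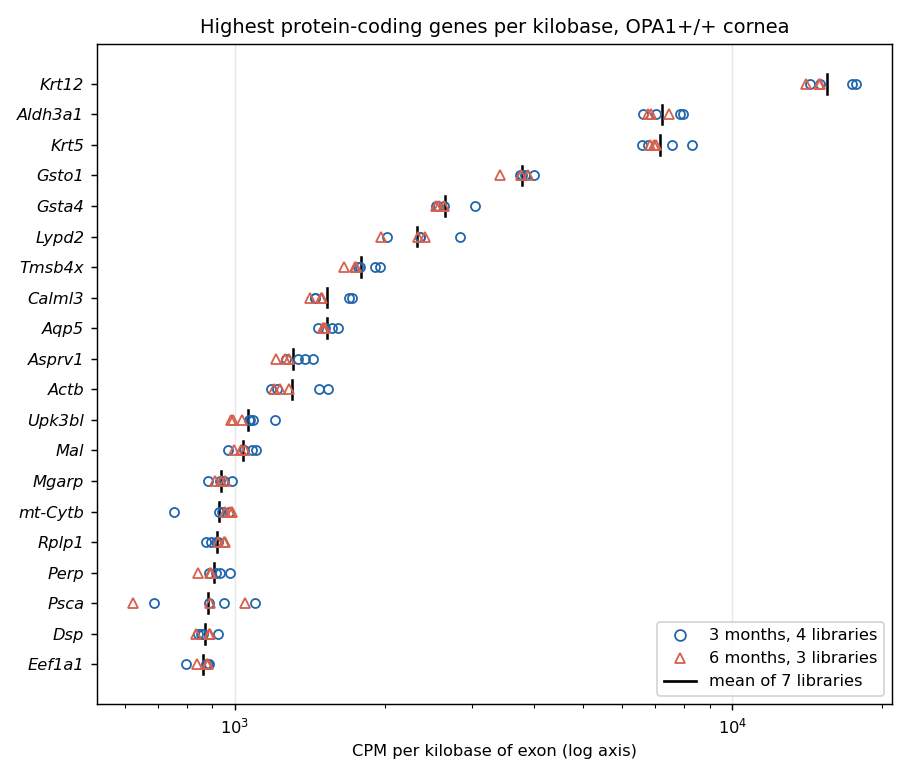
Level in CPM per kilobase of exon (log axis) of the 20 protein-coding genes highest on this scale, with a circle for each 3-month library, a triangle for each 6-month library and a bar at the mean of 7. Krt12 stands alone near 15502, the points of Aldh3a1 and Krt5 overlap, and Psca is the gene whose points lie widest apart.

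Dividing by length changed which genes led. Malat1, a nuclear long noncoding RNA, was at rank 2 by CPM (22762 ± 1524) and at rank 8 per kilobase (3260 ± 218). Ahnak, a very large scaffold protein, went from rank 6 by CPM to rank 43 per kilobase, Plec (plectin, a cytoskeletal linker) from 20 to 141, and Ppl (periplakin, of the cornified envelope) from 18 to 46. The 100 highest genes by CPM and the 100 highest per kilobase shared 59, and their median exon lengths were 5433.5 and 1897 bases, beside 4192 bases over all genes of at least 1 CPM. Lypd2 and Upk3bl, a uroplakin-like membrane protein, went the other way, from ranks 39 and 44 by CPM to 10 and 17 per kilobase of exon.

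Mitochondrial, short noncoding and unnamed genes also took high places. The mitochondrial rRNAs mt-Rnr2 and mt-Rnr1 had 11264 ± 520 and 7209 ± 531 CPM per kilobase. In these counts the highest mitochondrial mRNA per kilobase was mt-Cytb, the cytochrome b of complex III, at 931 ± 80.8. Its lowest library was 3-month replicate 4, at 862 CPM against 1063 to 1131 CPM. Reads that map to several places were not counted, which can change the order of genes with near-identical copies. The gene ENSMUSG00002076161, of 331 bases at chr9:78082585-78082915 and without a symbol in the table used, ranked 2 per kilobase at 11272 ± 1737. Another gene without a symbol in that table, ENSMUSG00000118672, with 12754 bases of exon at chr16:32555015-32602754, ranked 10 by CPM (4496, 6239 and 7214 CPM) and 41 per kilobase. Which gene it is was not determined, and without a symbol it could enter no marker list. Mir6236, 123 bases long, entered the highest 20 per kilobase at 956 CPM per kilobase with an SD of 787. Its libraries ranged from 26.4 to 250 CPM, so its rank of 19, which is that of its mean level, need not hold in single libraries.

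TATAAA in the window of 20 to 40 bases before the start, read on the gene's strand, was found in 7 of the 60 promoters of the 100 highest protein-coding genes per kilobase (11.7%), of which 56 had a promoter in the table. The genes were Krt12, Aqp3, Plet1, Ifit1bl1, Dapl1, 2610528A11Rik and Anxa1. The share was 1.99% of all 32851 promoters in the table and 1.11% of the 12482 promoters of protein-coding genes of at least 1 CPM. Among the 500 highest it was 3.71% (17 of 458), and among the 20 highest 1 of 11. With the letters allowed on either strand anywhere in the 300 bases, the shares were 26.7% for the 100 highest, 13.6% for all promoters and 6.99% for genes of at least 1 CPM. Ranked by CPM without length, the 100 highest genes had the motif in 6.58% of their promoters. These are counts of letters, and binding was not measured.

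The 26 lists of marker genes placed the tissues of the cornea on this scale. Median levels of members were 637 CPM per kilobase for differentiated corneal epithelium (15 genes, 14 matched in the files), 60.9 for epithelial transcription factors (10 genes), 58.1 for basal and limbal epithelium (12 genes), 24.1 for stroma and keratocytes (18 genes) and 13.6 for corneal endothelium (10 genes). All other lists had medians of 1.02 CPM per kilobase or less. The labelled tissue and its defining markers thus went together, with Krt12 at rank 1, Aldh3a1 at 4, Pax6 at 277, Kera at 321, Lum at 481 and Slc4a11 at 880 per kilobase. Opa1 itself ranked 4904, at 8.67 CPM per kilobase ± 0.351, or 65.1, 67.4 and 73.3 CPM.

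**Figure D2:**
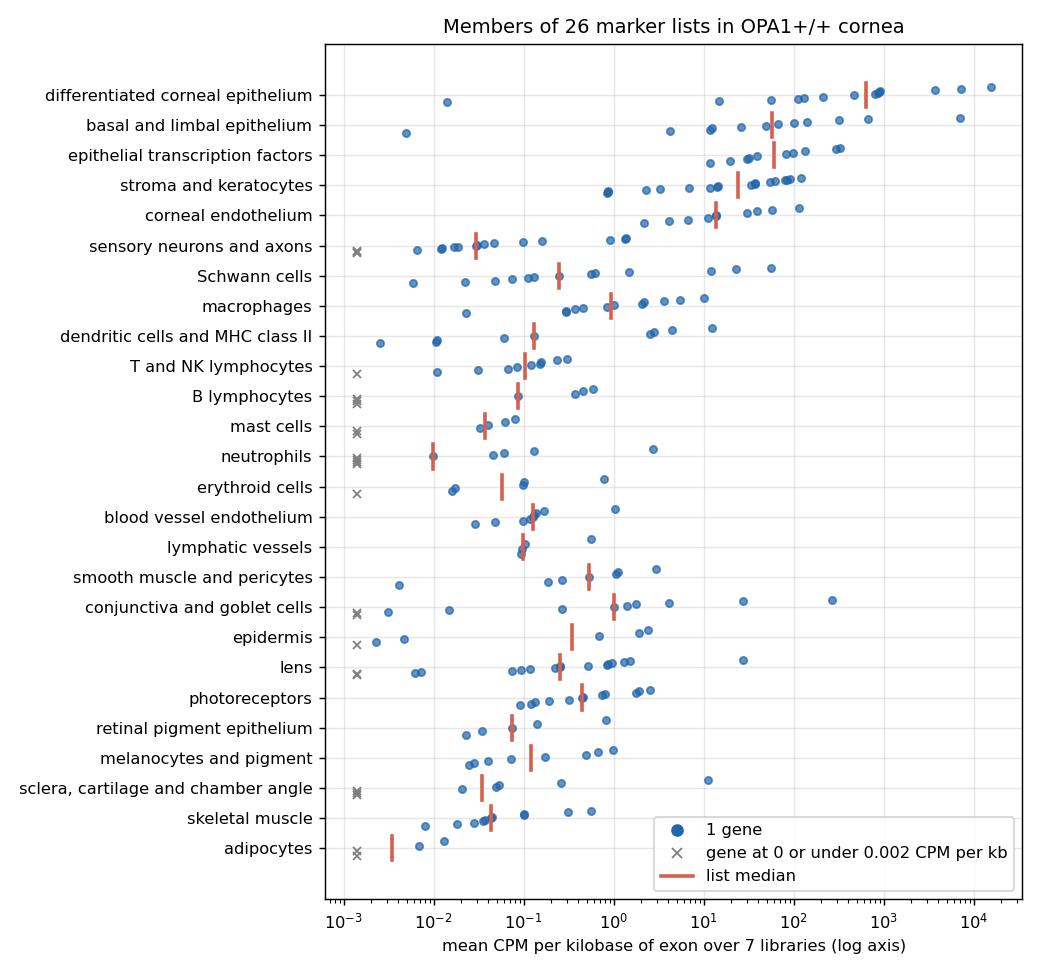
Mean level in CPM per kilobase of exon over the 7 libraries (log axis) of each member of the 26 marker lists, with a red bar at the list median and crosses for genes at 0 or below the axis. The 5 lists of corneal layers have medians from 13.6 to 637, and single members such as Krt13, Cryab and Mgp stand far above the rest of their own lists.

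Differentiated epithelium contributed the largest sum, 65600 to 76082 CPM, of which Krt12 made up 41.1%. The listed mucin gene Muc4 matched no symbol, so its level is missing from this sum and from the share of Krt12. Of 14 members, 13 had at least 1 CPM. Upk1b, a uroplakin of the apical membrane, had 467 CPM per kilobase ± 17.1, and the adhesion receptor Cdh1 (E-cadherin) had 113 ± 2.63 with a CV of 2.34%, the lowest of this list. The 3 most variable members follow. Psca, a lipid-anchored antigen of the Ly6 family, ranged over 537, 765 and 944 CPM (CV 19.8%), Slurp1, a secreted Ly6 protein of the ocular surface, over 463, 613 and 772 CPM (CV 18.9%), and Cldn4, a tight junction claudin, over 190, 223 and 298 CPM (CV 17.3%). In 6-month replicate 2, Psca was at its lowest, and Slurp1 and Cldn4 were at their highest. Muc16, the membrane mucin of the glycocalyx, was the single member under 1 CPM, at a mean of 0.372 CPM with 3 libraries at 3 counts or fewer.

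Transcription factors of the epithelium summed to 4378 to 4740 CPM and had a median CV of 6.10%, the lowest of the 5 lists of corneal layers. Klf4, needed for epithelial barrier genes, led at 330 CPM per kilobase ± 31.1, followed by the Ets factors Elf3 (294 ± 9.75) and Ehf (133 ± 5.26). Pax6, the master regulator of eye development that stays on in corneal epithelium (chr2:105499245-105527709), had 97.2 CPM per kilobase ± 4.41, with 1050, 1157 and 1185 CPM. The lowest 2 libraries for Pax6 were 3-month replicate 4 and 6-month replicate 3, and all 7 lay within a CV of 4.54%.

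Basal and limbal genes differed in their spread. Krt5 made up 69.8% of their sum. Col17a1 (CV 2.92%), the integrin Itga6 (CV 5.08%), the laminin chain Lamb3 (CV 6.32%) and Trp63, the p63 factor that maintains stratified epithelia (364, 412 and 453 CPM, CV 6.77%), varied little. The keratins Krt15, Krt14 and Krt19, which mark basal and limbal cells, had CVs of 34.4%, 44.6% and 36.8%, beside median CVs of 5.22%, 5.40% and 6.34% for genes of like mean CPM. Krt15 ranged over 265, 617 and 776 CPM and Krt19 over 25.3, 53.6 and 69.6 CPM, both with 6-month replicates 2 and 3 lowest and 6-month replicate 1 highest. Krt14 had 477 CPM in 3-month replicate 3 and 153 to 260 CPM elsewhere. Of the putative limbal stem cell markers, Abcg2 had 34.4 CPM ± 5.15, Gpha2 9.03 ± 2.79, and Abcb5 only 2 counts over the 7 libraries.

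Stromal genes were lower than epithelial ones per kilobase and varied more. Angptl7, a secreted protein of keratocytes and the chamber angle, had the highest member level at 122 CPM per kilobase ± 48.1. The fibrillar collagen gene Col1a1 had 91.6 CPM per kilobase ± 16.1 (453, 593 and 789 CPM), and the small leucine-rich proteoglycans that space the collagen fibrils had 84.5 ± 12.7 for Kera (154, 197 and 232 CPM), 80.1 ± 10.97 for Dcn (355, 471 and 532 CPM) and 62.4 ± 10.9 for Lum (114, 149 and 188 CPM). Col12a1, the fibril-associated collagen, was the largest contributor by CPM (833 ± 57.6) but had 54.7 per kilobase. Ogn and Fmod, other proteoglycans of this family, were lower at 14.5 and 2.29 CPM per kilobase, and Col3a1, the collagen of looser connective tissue, had 0.860.

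The stromal genes had a median CV of 17.5%. All 18 had a CV above that of genes of like level, as did 9 of 10 endothelial genes, 9 of 11 basal and limbal genes, 8 of 13 differentiated epithelial genes and 50.1% of all genes of at least 1 CPM. Of the 18, 9 were highest in 3-month replicate 4 and 12 were lowest in 6-month replicate 3. The list's sum was 4404 CPM in the former and 2858 CPM in the latter, against 3323 to 3931 CPM in the other 5 libraries. Of the 10 endothelial genes, 5 were also lowest in 6-month replicate 3. The share of all genes that were highest or lowest in these libraries was not counted, so these counts show no trait of either list. Aldh1a1, an aldehyde dehydrogenase listed with keratocytes, was highest, at 242 CPM, in 6-month replicate 3.

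The genes of the endothelium, a single cell layer, were lower and steadier than those of the stroma, with a median CV of 9.63% against 17.5%. They were less steady than those of differentiated epithelium (6.37%). Aqp1, the water channel of corneal endothelium and keratocytes, had 114 CPM per kilobase ± 10.4 (268, 293 and 352 CPM), and Col8a2, a collagen of Descemet's membrane, had 57.2 ± 4.33 (222, 260 and 278 CPM). Slc4a11, the solute transporter of the endothelial pump (chr2:130526033-130539439), had 38.9 ± 9.69 and was the most variable member, with a CV of 24.9%. Its CPM in the 3-month libraries was 164, 173, 157 and 137 in replicates 1 to 4, and in the 6-month libraries 223, 263 and 244 in replicates 1 to 3, so the ages did not overlap. The bicarbonate transporter Slc4a4 (117, 132 and 137 CPM, CV 5.76%) and the transcription factor Foxc1 (CV 6.53%), which shapes the anterior segment, varied less. The list's sum ranged from 1263 to 1448 CPM.

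**Figure D3:**
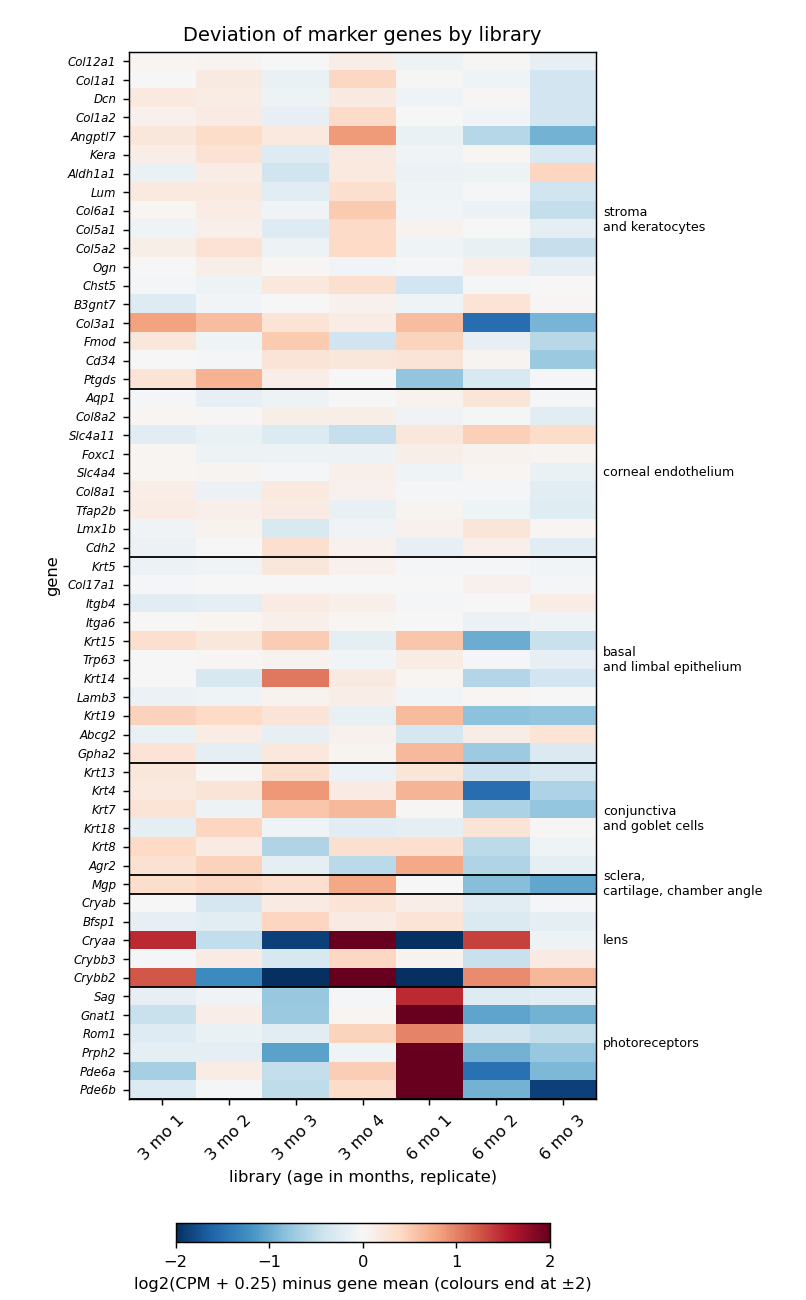
Deviation of marker genes of at least 1 CPM in each library from the gene's mean over the 7 libraries, on the log2(CPM + 0.25) scale with colours ending at 2 above and below. Most stromal genes are blue in 6-month replicate 3, the conjunctival and limbal keratins are blue in 6-month replicates 2 and 3, and the photoreceptor genes are red in 6-month replicate 1.

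Most neuronal transcripts were close to the limit of detection. Of 17 genes of sensory neurons and axons, 3 had at least 1 CPM and 9 had 3 counts or fewer in every library. Scn9a and Scn10a, sodium channels of nociceptors, and Calca, the precursor of the neuropeptide CGRP, had no count. Tubb3 (neuronal tubulin) had 5 counts and Trpv1 (the capsaicin receptor) 12 over the 7 libraries. Ret, a receptor of glial-derived neurotrophic factors, made up 70.4% of the list's sum, at 7.76, 9.10 and 13.1 CPM. It is no marker of neurons alone. Gap43, a growth cone protein, had 1.40 CPM ± 0.538 and Sncg, gamma-synuclein, 1.14 ± 0.277.

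The Schwann cell list, by contrast, summed to 507 to 586 CPM, and 63% of that was Erbb3, the neuregulin receptor that Schwann cells share with many epithelia. Erbb3 had 55.9 CPM per kilobase ± 3.34 (311, 337 and 367 CPM). Ngfr, the low-affinity neurotrophin receptor, had 22.8 ± 1.72, and Mbp, myelin basic protein, 12.2 ± 1.59. The more restricted members were far lower. Sox10, the Schwann cell master regulator, had 0.147 CPM, with 6 libraries at 3 counts or fewer, and S100b and Mag had 3 and 2 counts over the 7 libraries. Prx, periaxin of myelinating cells, had 8.48 CPM ± 1.04.

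Among immune markers, those of macrophages and of MHC class II were the highest. Of 12 macrophage genes, 11 had at least 1 CPM and the list summed to 56.7 to 73.3 CPM. Cd68, a lysosomal protein, had 10.1 CPM per kilobase ± 1.47, Itgam (CD11b) 5.499 ± 0.484 and Lyz2, lysozyme, 3.65 ± 0.924. The complement genes C1qa, C1qb and C1qc had 2.28, 2.23 and 1.97 CPM. Ptprc (CD45, on all leukocytes) ranged over 2.80, 5.96 and 7.75 CPM, and it was lowest in 6-month replicate 3, as was the sum of the list.

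Antigen presentation genes were next. Cd74, the invariant chain of MHC class II, had 12.3 CPM per kilobase ± 1.63 (16.3, 20.7 and 25.3 CPM), and H2-Eb1, H2-Ab1 and H2-Aa, the class II chains, had 8.70, 7.27 and 9.65 CPM. The Langerhans cell marker Cd207 had 8 counts over the 7 libraries and the dendritic cell receptors Ccr7, Flt3 and Xcr1 had 2, 6 and 1. Among lymphocytes, the T cell genes Cd8a and Cd3e had 1.12 and 0.614 CPM, and the B cell genes Cd79a and Ms4a1 no count. Of 9 neutrophil genes 7 had 3 counts or fewer in every library. S100a9, a calprotectin subunit, was 78.5% of their sum, with 0.149 CPM in 6-month replicate 2 and 4.04 CPM in 6-month replicate 3. Mast cell genes summed to 0.0776 to 0.580 CPM.

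Vessel and blood genes were low. Kdr, the VEGF receptor, was 58.7% of the vessel list's sum at 5.44, 10.001 and 12.1 CPM. The endothelial adhesion genes Pecam1 and Cdh5 had 0.847 CPM ± 0.439 and 0.531 ± 0.313. Of the lymphatic genes, Lyve1 had 0.299 CPM and Prox1 0.799. The globin genes Hbb-bs and Hba-a1 had 7 counts each over the 7 libraries, and Alas2, the erythroid haem synthesis enzyme, had 1.88 CPM ± 0.360 and made up 91.3% of the erythroid sum. Reads that map to several places were not counted, which lowers any gene with near-identical copies.

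Markers of neighbouring tissue depended on the library. The conjunctival keratin Krt13 had 264 CPM per kilobase ± 51.8 (356, 482 and 602 CPM) and was 83.5% of its list's sum. Krt4, another mucosal keratin, ranged over 18.0, 59.8 and 95.3 CPM and Krt7 over 16.1, 28.1 and 43.0. All 3 were lowest in 6-month replicates 2 and 3, the libraries that were also lowest for Krt15 and Krt19 of the limbus and for Mgp, the matrix Gla protein of sclera and cartilage (5.75, 15.2 and 20.8 CPM). The goblet cell genes Muc5b and Tff3 had no count, Muc5ac 3 and Tff1 1 over the 7 libraries. Epidermal genes were low, with the cornified envelope precursor Ivl at 4.65 CPM ± 1.49 and Krt10 at 4.07 ± 0.499. Smooth muscle and pericyte genes summed to 21.1 to 35.6 CPM, of which the platelet-derived growth factor receptor Pdgfrb made up 55.9%. Pigment cell genes summed to 9.01 to 13.2 CPM, led by Dct of the melanin pathway (38.6%). The sum was 2.31 to 3.40 CPM for retinal pigment epithelium and at most 0.226 CPM for adipocyte genes.

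Photoreceptor and skeletal muscle genes stood apart in 1 library each, and the lens gene Cryaa in several. All 7 photoreceptor genes of at least 1 CPM were highest in 6-month replicate 1, where the list summed to 165 CPM against 12.9 to 25.4 CPM elsewhere. The share of all genes that were highest in that library was not counted. Gnat1, rod transducin, had 26.9 CPM there and 1.34 to 3.41 CPM in the other 6 libraries. Without 6-month replicate 1 the mean sum was 17.8 CPM, against 38.8 CPM with it. Of the lens genes, the small heat shock crystallin Cryab (75.4% of the sum), which other tissues express as well, varied with a CV of 14.8%. The lens-restricted Cryaa was 7.15, 4.72 and 4.32 CPM in 3-month replicates 4 and 1 and 6-month replicate 2 and 0.0752 to 1.40 CPM elsewhere, and Crybb2 was highest in the same 3-month replicate 4, at 7.49 CPM. Skeletal muscle genes summed to 10.5 CPM in 3-month replicate 1 and 1.01 to 1.57 CPM elsewhere, and without that library their mean sum was 1.32 CPM, against 2.64 CPM with it.

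The spread between libraries fell with level and then levelled off. The median CV was 19.2% for genes of 1 to 10 CPM, 7.82% for 10 to 100 CPM, 5.53% for 100 to 1000 CPM and 6.47% above 1000 CPM. Counting error alone would give 15.1%, 5.06%, 2.16% and 0.695%. For the most abundant genes the spread was thus nearly all between libraries rather than from counting. By list, the median CV was 6.37% for differentiated epithelium, 9.63% for endothelium, 10.2% for basal and limbal epithelium, 17.5% for stroma, 22.5% for lens, 32.8% for conjunctiva and 163% for photoreceptors, over members of at least 1 CPM. These lists lie at unlike CPM, so their medians are not compared at equal level. The CV exceeded that of like genes for 4 of 5 lens, 6 of 6 conjunctival and 7 of 7 photoreceptor genes, and for 50.1% of all genes.

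**Figure D4:**
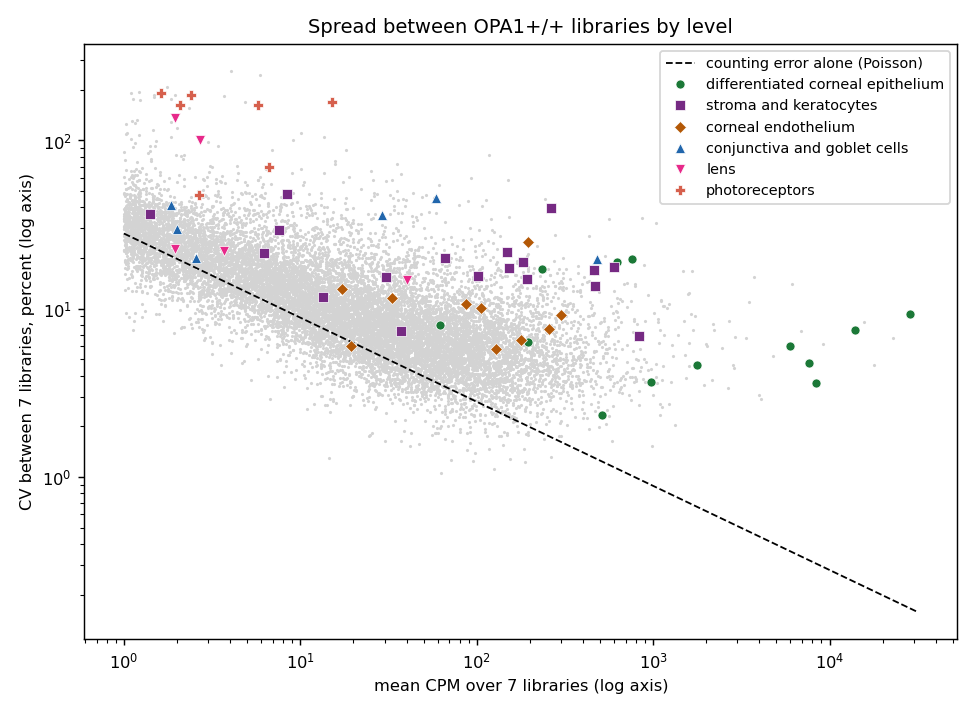
CV between the 7 libraries against mean CPM (both log axes) for the 14423 genes of at least 1 CPM, with members of 6 marker lists in colour and a dashed line at the CV of Poisson counting at the mean depth. The 13 differentiated epithelial genes lie between 2.34% and 19.8%, the 18 stromal genes lie above its middle, and photoreceptor genes lie highest, at 47.2% to 191%.

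The genes of at least 10 CPM that varied most included keratin, lipid enzyme and vesicle genes. Krt16, a keratin of stressed and hyperproliferative epithelium, had 22.1 and 29.8 CPM in 3-month replicates 1 and 3 and 1.45 to 6.88 CPM in the other 5. Alox12e, an epidermal-type lipoxygenase, ranged over 0.969, 17.2 and 33.96 CPM. Sytl2, a Rab27-binding protein of secretory vesicles, fell into separate levels, with 1.53 and 0.854 CPM in 3-month replicate 4 and 6-month replicate 3 and 33.1 to 62.5 CPM in the other 5. Pbp2, a phosphatidylethanolamine-binding protein, and Gm44275, neighbours on the minus strand of chromosome 6, moved in the same way. Pbp2 had 0.0843 to 0.314 CPM and Gm44275 1.65 to 2.19 CPM in 3-month replicates 1, 2 and 3, against 18.1 to 38.0 and 25.9 to 40.8 CPM in the remaining 4 libraries.

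The ages were set side by side without a test. Of the 14423 genes of at least 1 CPM, 1195 (8.29%) had ranges that did not overlap between 3 and 6 months, 527 (3.65%) with every 3-month library higher and 668 (4.63%) with every 6-month library higher. Among the 124 marker genes of at least 1 CPM, 8 were higher in every 3-month library and 3 in every 6-month library, a share of 8.87%, near that of all genes. The count over all genes was 3140 without 6-month replicate 1 and between 1764 and 2097 without any other single library. Leaving out a library can only keep or add genes whose ranges do not overlap, so a rise was fixed in advance.

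Those higher at 3 months were Angptl7 (281 to 439 CPM, against 127 to 223 CPM at 6 months), the Descemet collagen Col8a2 (260 to 278 against 222 to 252 CPM), Itga6 (619 to 660 against 566 to 613 CPM), Mgp, Prx, Kdr, Acta2 and Ptgds. Those higher at 6 months were Slc4a11, whose values stand above, Foxc1 (165 to 183 against 184 to 192 CPM at 6 months) and Grhl2, a grainyhead factor of epithelial junctions (157 to 166.9 against 167.2 to 179 CPM). Of the 10 endothelial genes, the ages overlapped for 7. Of the 100 highest genes by CPM, 4 were higher in every 3-month library and 6 in every 6-month library. Among the 10 most variable genes of at least 10 CPM, the ages did not overlap for Clca3b, of the chloride channel regulator family, with 15.5 to 39.0 CPM at 3 months and 5.28 to 6.63 CPM at 6 months.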

How the data were processed

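Total RNA of mouse cornea was depleted of ribosomal RNA, made into strand-specific libraries and sequenced as single reads of 75 bases, per the labels' protocols. The deposited values are whole counts per gene, made by the authors with featureCounts 2.0.1 on exons of GENCODE mouse release 28 with strand setting 2, per the file headers, which also give each exon length. The command counts no reads that map to several places, which lowers genes with near-identical copies, and pseudogene values are uncertain. The submitters' processing notes name mm10 and DESeq2, whereas release 28 belongs to GRCm39. No aligner is named in the sources used here.

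CPM was computed as counts over library totals multiplied by TMM factors (edgeR 4.0.16, R 4.3.3, all 15 libraries, 15770 of 55357 genes after filterByExpr). Symbols matched 52081 identifiers (94.1%) and 255 of 257 marker genes. Replicates differed beyond counting noise in every pair (chi-square per degree of freedom 3.95 to 10.1). A gene's CV was set beside the median CV of the 100 genes above and the 100 below it in CPM. On simulated data of the 7 libraries, 96% of 200 genes given more spread exceeded 2 times the CV of like genes, against 0.134% of the rest. The rest shared 1 small true spread, and the results above count any CV above that of like genes. These shares therefore do not carry over to the real genes. The rule for named genes took the 20 highest by CPM, the 20 highest protein-coding ones per kilobase, Opa1, the 6 markers, up to 4 leading members and the most variable member of each list, and the 10 most variable genes of at least 10 CPM with a symbol. Further genes named are list members or were picked after their values were seen. Members and lists were chosen with earlier results of these data known. Results for some genes are not reported here. No test of age or genotype was run; ages are described by their ranges. Among the 4 libraries of 3 months, single libraries standing apart were marked by Dixon's ratio above 0.829. Alternatives were raw totals, DESeq2 size factors (1.42.0), TPM, medians, other thresholds and leaving out each library in turn.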

Additional observations from a re-analysis of the deposited data

Results flagged for a closer look

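Among the 4 libraries of 3 months, 133 levels were checked for a library that stands far from the nearest of the other 3 relative to the whole range (26 list sums and 107 genes), and 19 were marked. Chance alone marks about 1 in 20 of independent, normally distributed levels that were not selected. Some of these genes were named for a high CV over the same libraries, and list sums share members with the genes. The number marked therefore cannot be set against that rate. The 3 libraries of 6 months were too few for this check.

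In 3-month replicate 4 the summed level of sclera, cartilage and chamber angle genes was 21.2 CPM against 16.3 to 17.0 CPM, with Mgp at 20.8 against 15.2 to 16.2 CPM. The same library had Pbp2 at 20.2 against 0.0843 to 0.314 CPM, Gm44275 at 26.2 against 1.65 to 2.19 CPM, Upk3bl at 1566 against 1389 to 1418 CPM, Rom1 at 3.49 against 2.02 to 2.25 CPM and Gap43 at 2.47 against 1.16 to 1.26 CPM, while Sncg was lower, at 0.766 against 1.34 to 1.43 CPM.

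In 3-month replicate 1 the sums of sensory neuron genes (17.0 against 12.7 to 12.9 CPM) and of skeletal muscle genes (10.5 against 1.09 to 1.57 CPM) were the highest, the sum of retinal pigment epithelium genes was the lowest (2.53 against 3.30 to 3.40 CPM), and Foxc1 stood at 183 against 165.1 to 165.4 CPM.

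In 3-month replicate 3, Krt4 had 95.3 against 58.5 to 62.3 CPM and Clca3b 39.0 against 15.5 to 18.6 CPM, while Eef1a1 (1991 against 2179 to 2209 CPM), Dcn (431 against 516 to 532 CPM) and Prph2 (0.393 against 0.927 to 1.02 CPM) were lower. In 3-month replicate 2, Krt10 had 4.93 against 4.05 to 4.09 CPM and Krt18 3.48 against 2.13 to 2.36 CPM.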

How the results depend on the processing

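No paired analysis was possible because no test between groups was run. The summed levels of all 26 marker lists stayed within 1 SD over libraries under 11 alternatives each (286 of 286 values). Leaving out 1 library, taking the median or weighting the ages equally cannot move a mean by more than that SD. Only raw totals and DESeq2 size factors could thus have moved a sum. The photoreceptor and skeletal muscle means did change with 1 library each, as given above. Of 1323 ranks per kilobase of 147 named genes, 1245 stayed within the spread between libraries and 78 moved, and ranking by CPM without length moved 89 of 147. A threshold of 10 CPM in place of 1 CPM left 9283 genes in place of 14423. The share of counts in the highest 10 genes was 12.7% without mitochondrially encoded genes and 11.2% without noncoding ones as well, and in the highest 100 genes 25.997% and 23.9%. The count of genes whose ages did not overlap was 1764 to 3140 when 1 library was left out, which can only raise it, and 1177 to 1200 under other scalings. The TATAAA share of the highest 100 genes was 6.58% by CPM rank. The checks of ages, spread and TATAAA were chosen after seeing the data. Depth limits genes under about 1 CPM, where most neuronal, lymphoid and goblet cell markers lie, so their absence cannot be read from these counts.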

Other observations

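A search chosen after seeing the data took genes with at least 10 CPM in some library and 3 counts or fewer in another, and it found 10. Ttn, the giant spring protein of striated muscle, had 38.9 CPM in 3-month replicate 1 and 0.155 to 0.797 CPM elsewhere, in the library whose muscle list was highest. Rp1, a photoreceptor axoneme protein, and Mir124a-1hg, host of a neuronal microRNA, had 10.1 and 10.003 CPM in 6-month replicate 1 and at most 1.67 and 0.595 CPM elsewhere, in the library whose photoreceptor list was highest.

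A further 6 differed in other libraries. Rps13-ps1, a processed pseudogene, had 17.5 and 16.3 CPM in 3-month replicate 4 and 6-month replicate 3 and at most 0.0843 CPM in the other 5 libraries. Those are the libraries in which Sytl2 was low. ENSMUSG00000118426, without a symbol, had no count in 3-month replicates 1 and 2 and 6-month replicate 3, and 11.03 to 21.1 CPM in the other 4. The pseudogene Gm11942 was near 0 in 3-month replicate 2 alone (0.0725 CPM, against 13.7 to 52.2 CPM), and the pseudogene Gm11735 was low in 3-month replicate 1 alone (0.253 CPM, against 7.30 to 20.1 CPM). ENSMUSG00002075551, of 57 bases, had 27.8 CPM in 6-month replicate 2 and at most 0.170 CPM elsewhere. Pbp2 is described above.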
